A study of Mus musculus with 24 samples.

Results

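MHC class II molecules present peptides from the endosomes of a cell to CD4+ T cells. A fixed list of 9 genes of this pathway was followed, out of 35976 genes in the deposited tables: H2-Aa, H2-Ab1 and H2-Eb1, H2-DMa and H2-DMb1, H2-Oa and H2-Ob, Cd74 and Ciita. The list goes by the genes' known function, and each gene has a row in the table of every library, at 0 counts in some. An alpha and a beta chain pair in the endoplasmic reticulum (H2-Aa with H2-Ab1 in the A molecule, H2-Eb1 with the E alpha chain in the E molecule) and bind the invariant chain, encoded by Cd74, which fills the groove and directs the complex to endosomes. There the H2-DM heterodimer of H2-DMa and H2-DMb1 exchanges the last piece of invariant chain for a peptide, and the H2-O heterodimer of H2-Oa and H2-Ob inhibits H2-DM. Ciita is the co-activator that switches the pathway on. It is active by default in dendritic cells and B cells and is inducible by interferon gamma in many other cells, tumor cells included.

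The mRNA libraries came from CT26, a mouse colon carcinoma line of the BALB/c strain, with a knockout of Sun1, whose product sits in the inner nuclear membrane and links the nucleus to the cytoskeleton, or without it. There were 7 knockout and 8 control line 1 libraries of whole subcutaneous tumors taken at day 14 from BALB/c mice, 2 libraries each of the knockout, control line 1 and control line 2 from cells purified out of such tumors with a tumor cell isolation kit, and 1 library each of the same 3 lines in culture. The controls are labelled wild type. Only the injected cells carried the knockout, and the labels name 1 knockout line, so a difference between tumors belongs to that line. The labels do not say whether replicates were single animals or pools, so p-values measure the spread between these libraries. Whole tumors hold host cells, and in them fewer cells of a type and less RNA per cell cannot be told apart.

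Library totals ran over 14140769 to 24651279 expected counts in the 15 tumors, 17068356 to 22593612 in the 6 purified libraries and 18832201 to 20716917 in culture. Levels below are in CPM, counts scaled to library size with TMM factors over all 24 libraries. Sun1 was at 50.5 to 64.8 CPM in knockout tumors, against 168.7 to 192.4 CPM in control tumors. Ptprc, the leukocyte marker CD45, was at 156 to 241 CPM in knockout tumors, against 72.2 to 153 CPM in control tumors, without overlap. It was at 0.459 to 2.26 CPM in the 6 purified libraries.

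Of the 9 genes, 7 lie within 224 kb of chromosome 17 (GENCODE annotation of GRCm38, 34092340 to 34316674), and Ciita lies on chromosome 16 (10480059 to 10528418). Class II promoters are known for a conserved array of boxes, among them an X box and a Y box, the second being an inverted CCAAT element bound by NF-Y. The factors bound there recruit Ciita. RefSeq promoter entries (GRCm38.p6) were available for 6 of the 9 genes. They were searched on both strands for GATTGG, the inverted CCAAT motif, and for AACNNATGATG, an X-box type motif. The second was built from the entries of the members themselves, as the bases they share before ATGATG upstream of GATTGG, after the sequences had been seen, so that members hold it is by construction. Windows of 86 bases are shown for 5 of the genes and for the near copy H2-DMb2 because they carry the elements that class II genes share. Capitals mark the motifs.
H2-Aa: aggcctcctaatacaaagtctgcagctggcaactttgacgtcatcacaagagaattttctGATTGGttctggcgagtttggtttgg
H2-Eb1: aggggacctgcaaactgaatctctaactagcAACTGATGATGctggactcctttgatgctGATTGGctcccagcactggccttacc
H2-DMb1: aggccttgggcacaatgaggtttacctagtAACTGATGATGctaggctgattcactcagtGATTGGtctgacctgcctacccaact
H2-DMb2: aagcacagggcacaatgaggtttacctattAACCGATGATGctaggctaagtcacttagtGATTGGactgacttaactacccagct
H2-Oa: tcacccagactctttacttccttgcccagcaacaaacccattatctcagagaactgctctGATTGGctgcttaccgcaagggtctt
H2-Ob: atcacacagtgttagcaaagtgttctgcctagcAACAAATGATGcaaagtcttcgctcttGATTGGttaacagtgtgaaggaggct
The windows lie at chr17:34287847-34287932 on the minus strand for H2-Aa, and on the plus strand at chr17:34305747-34305832 for H2-Eb1, chr17:34153069-34153154 for H2-DMb1, chr17:34145098-34145183 for H2-DMb2, chr17:34092275-34092360 for H2-Oa and chr17:34238787-34238872 for H2-Ob. Both motifs occurred in the same order in 4 of these 6 windows, with 18 bases between them in H2-Eb1, 19 in H2-DMb1, 19 in H2-DMb2 and 16 in H2-Ob. Of the 6 genes searched, 3 held the X-box type motif and 6 held GATTGG. Among all 32851 promoter entries, 0.137% held the X-box type motif, 16.1% GATTGG and 0.0335% both. The match is a description of letters, and that the longer motif is not in the H2-Aa, H2-DMa and H2-Oa entries says only that these letters are not there.

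In whole tumors the question was whether losing Sun1 in the cancer cells changed the class II pathway of the tumor. H2-Ab1, the beta chain of the A molecule, and H2-Eb1, the beta chain of the E molecule, were about 2.13-fold and 2.10-fold higher in knockout tumors than in control tumors. H2-Aa, Cd74, H2-DMa, H2-DMb1 and Ciita did not pass the test, with fitted values all above 0, and H2-Oa and H2-Ob did not pass edgeR's filter on low counts. Thus 2 of the 7 members tested were higher and 0 lower at an adjusted p under 0.05 (edgeR's quasi-likelihood test, Benjamini-Hochberg over 13752 genes), where 18.1% of all genes tested were called higher. The median log2 fold change was 0.69 for the 7 members and 0.01 for all genes tested.

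H2-Ab1 was at 55.7 CPM in the lowest, 117 CPM in the median and 165 CPM in the highest of the 7 knockout tumors, against 27.2, 46.5 and 99.9 CPM in the 8 control tumors. Knockout tumors 6 and 7 lay low, at 55.7 and 58.1 CPM, under control tumors 2 and 8 at 99.9 and 68.6 CPM, and the groups overlapped there. The means were 112 ± 43.2 CPM in knockout and 52.9 ± 22.2 CPM in control tumors (SD, n = 7 and 8), which is 1.09 ± 0.30 as a fitted log2 fold change (SE, edgeR adjusted p = 0.0115).

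H2-Eb1 was at 59.4, 139.99 and 218 CPM (lowest, median, highest) in knockout tumors, against 30.6, 62.4 and 122 CPM in control tumors. The same 2 knockout tumors were lowest and the same control tumor, number 2, was highest. Its log2 fold change was 1.07 ± 0.34 (SE, edgeR adjusted p = 0.0266). The call was lost without knockout tumor 1 (0.94, adjusted p = 0.0580) or without knockout tumor 5 (0.93, adjusted p = 0.0595), the 2 tumors with most H2-Eb1.

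H2-Aa, the alpha chain that pairs with H2-Ab1, was read at far lower counts. It was at 1.61, 2.48 and 4.06 CPM in knockout tumors, against 0.598, 1.00 and 4.49 CPM in control tumors. Control tumor 2 stood above all others, and the next control tumor was at 1.69 CPM. The log2 fold change was 0.93 ± 0.37 (SE, edgeR adjusted p = 0.0531) and became 1.45 (adjusted p = 0.000421) without control tumor 2.

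Per length, in the authors' TPM, H2-Ab1 was 34.7 times H2-Aa in the median knockout tumor, range 29.6 to 40.8, and 37.7 times in the median control tumor, range 19.0 to 49.1. The products pair as partners. BALB/c and CT26 carry the H2d haplotype and the mm10 reference is from C57BL/6, of haplotype H2b, and whether allele differences lowered the H2-Aa counts was not tested. The E alpha chain is not made in C57BL/6, and the files carry its gene as H2-Ea-ps. H2-Ea-ps averaged 128 ± 58.9 CPM in knockout tumors and 56.6 ± 23.7 CPM in control tumors (SD, n = 7 and 8), or 1.19 ± 0.34 as a fitted log2 fold change (SE, edgeR adjusted p = 0.0149). That call was lost with log2 Ptprc as a covariate (0.14, adjusted p = 0.846). H2-Ea-ps stood at 2.34 times the TPM of its partner H2-Eb1 in the median knockout tumor and 2.20 times in the median control tumor.

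Cd74 (chromosome 18, 60803848 to 60812652) had the highest TPM of the 9 genes in all 15 tumors, averaging 505 ± 240.2 TPM in knockout and 348 ± 124.6 TPM in control tumors (SD, n = 7 and 8). Its CPM were 137, 451 and 675 (lowest, median, highest) in knockout tumors, against 137, 271 and 461 in control tumors, and 4 of the 7 knockout tumors (numbers 2, 4, 6 and 7) lay below control tumor 2. The log2 fold change was 0.67 ± 0.34 (SE, edgeR adjusted p = 0.131). It passed the test without knockout tumor 6 (0.83, adjusted p = 0.0411).

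H2-DMa, the alpha chain of the peptide exchanger, was at 17.4, 34.1 and 45.6 CPM in knockout tumors, against 15.2, 22.6 and 37.3 CPM in control tumors. The groups overlapped over most of their range, and the fitted log2 fold change was 0.50 ± 0.23 (SE, edgeR adjusted p = 0.0988). H2-DMb1, its beta chain, was at 1.5, 3.92 and 6.38 CPM in knockout tumors, against 1.36, 2.44 and 5.40 CPM in control tumors (log2 fold change 0.69 ± 0.31, SE, edgeR adjusted p = 0.0922). H2-DMb1 and H2-DMb2 share reads: their longest coding transcripts were identical at 87.7% of 1144 aligned bases, and their expected counts were not whole (tolerance 0.005) in 17 of 24 libraries each, while the other members' were whole in all 24. H2-DMb2 came to 0.59 ± 0.27 on the log2 scale (SE, edgeR adjusted p = 0.0966), so both copies are uncertain. H2-DMa and H2-DMb1 passed the test when control tumor 2 was left out (adjusted p = 0.0294 and 0.0144).

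H2-Oa and H2-Ob, the 2 chains of the H2-DM inhibitor, were near the limit of detection. H2-Oa ran over 0.0556 to 0.895 CPM in knockout tumors and 0 to 0.487 CPM in control tumors, and H2-Ob over 0 to 1.10 CPM in knockout and 0 to 0.367 CPM in control tumors. The most counts in a library were 17 for H2-Oa and 23 for H2-Ob, so differences between tumors were not detectable at this depth.

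Ciita was at 7.0, 18.04 and 23.3 CPM (lowest, median, highest) in knockout tumors, against 6.03, 11.5 and 20.5 CPM in control tumors. The ranges nearly coincided. Its log2 fold change was 0.43 ± 0.30 (SE, edgeR adjusted p = 0.274).

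**Figure D1:**
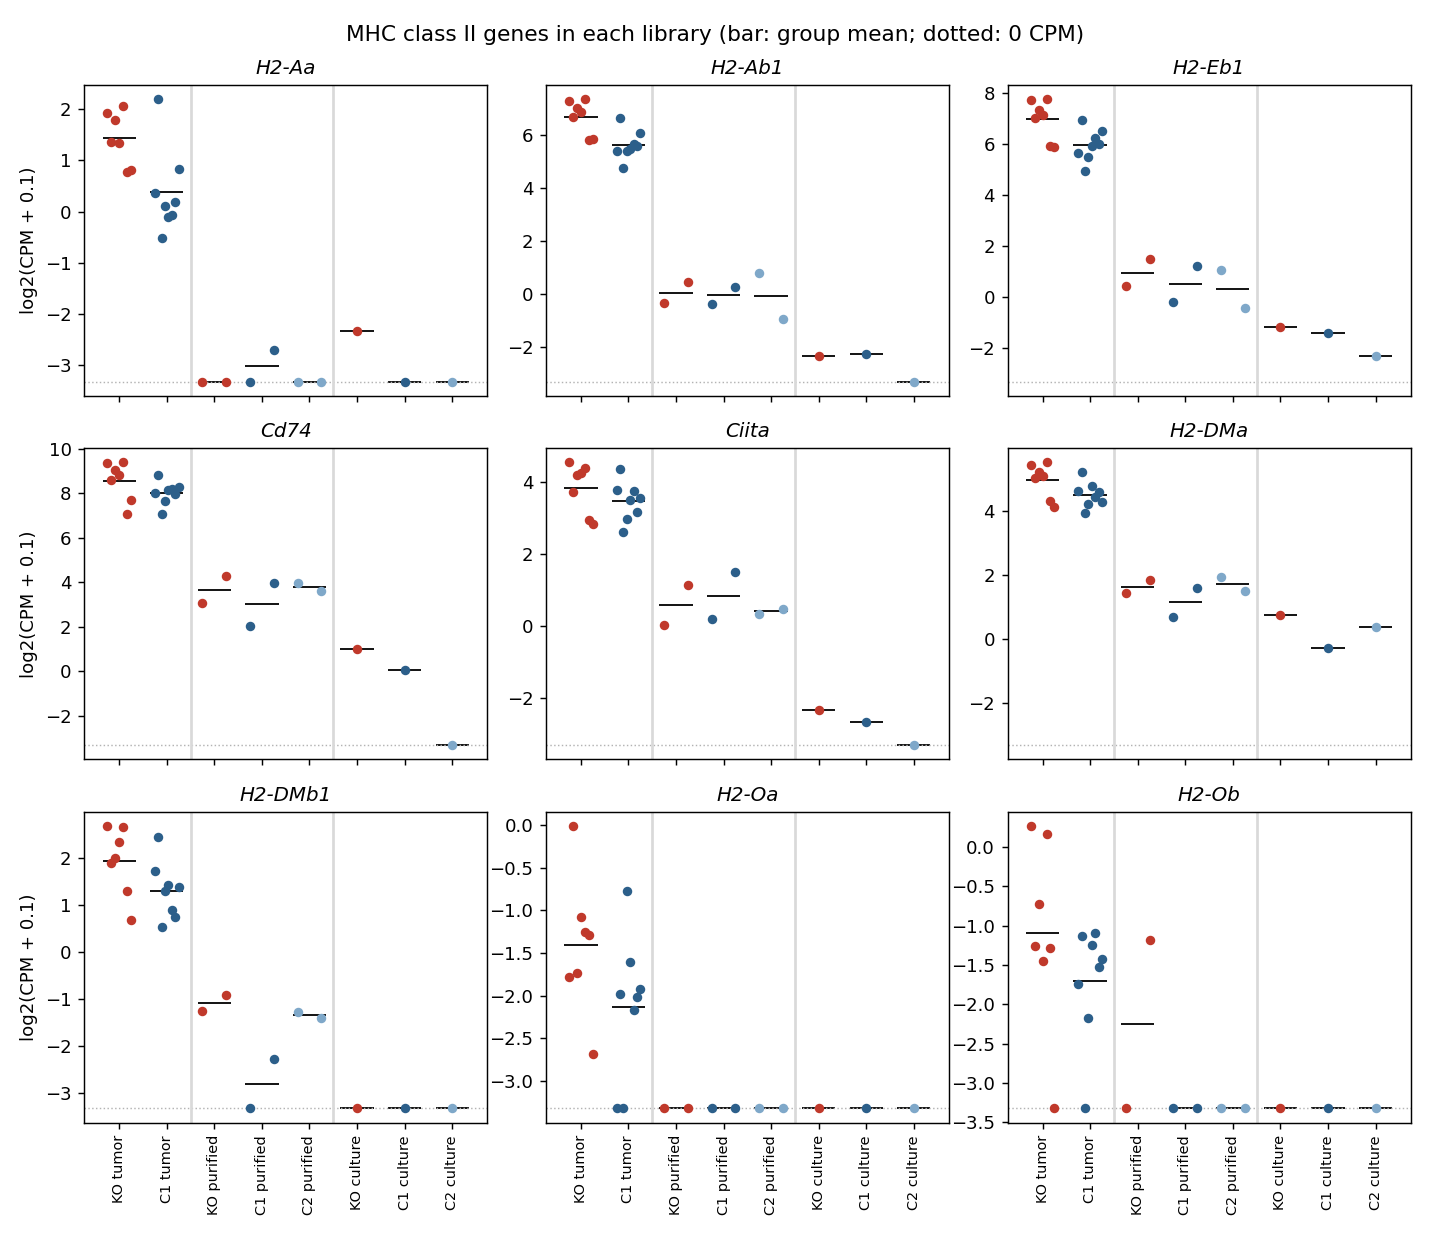
Level of each of the 9 genes in each of the 24 libraries, as log2(CPM + 0.1) on the vertical axis, by genotype and setting (KO, Sun1 knockout; C1 and C2, control lines 1 and 2). Each point is a library, the bar is the mean of the points and the dotted line is 0 CPM. The whole tumors stand above the purified and cultured libraries for H2-Ab1, H2-Eb1, Cd74, Ciita, H2-DMa and H2-DMb1, and the knockout and control tumors overlap in all 9 panels.

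The number of members called depended on single tumors. It was 1 without knockout tumor 1 or knockout tumor 5, 4 without knockout tumor 6, 5 without knockout tumor 7 or control tumor 2, and 2 when any other single tumor was left out. H2-Ab1 was called in all 15 of these fits. Over all genes they called 2166 to 2519 higher, of 13674 to 13858 tested. DESeq2, which also tested H2-Oa and H2-Ob, called 3 of 9 members, H2-Ab1, H2-Eb1 and H2-Aa. It called 2803 of all 17018 genes tested higher. In the authors' deposited table, whose fold changes run control over knockout, H2-Ab1 was at -0.99 (adjusted p = 0.00715), H2-Eb1 at -1.05 (0.00731), H2-Aa at -1.19 (0.00259) and H2-DMb1 at -1.01 (0.00730), while Cd74 (-0.67, 0.122) and H2-DMa (-0.55, 0.0999) missed the threshold.

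Ptprc moved with the genotype too, at 0.62 ± 0.14 on the log2 scale (SE, edgeR adjusted p = 0.0030). With log2 Ptprc as a covariate, 0 of the 7 members were called by edgeR. At an unadjusted p under 0.05 there were 0 members with it, against 5 without it. Over all 13752 genes tested, 3547 had such a p with the covariate and 6462 without it. The fitted values became 0.20 for H2-Ab1, 0.01 for H2-Eb1 and -0.17 for H2-Aa. The count over all genes became 1382 called in either direction, against 5107 without the covariate. The Ptprc ranges of the 2 genotypes did not overlap, so what belongs to the genotype and what to Ptprc cannot be told apart between the groups.

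**Figure D2:**
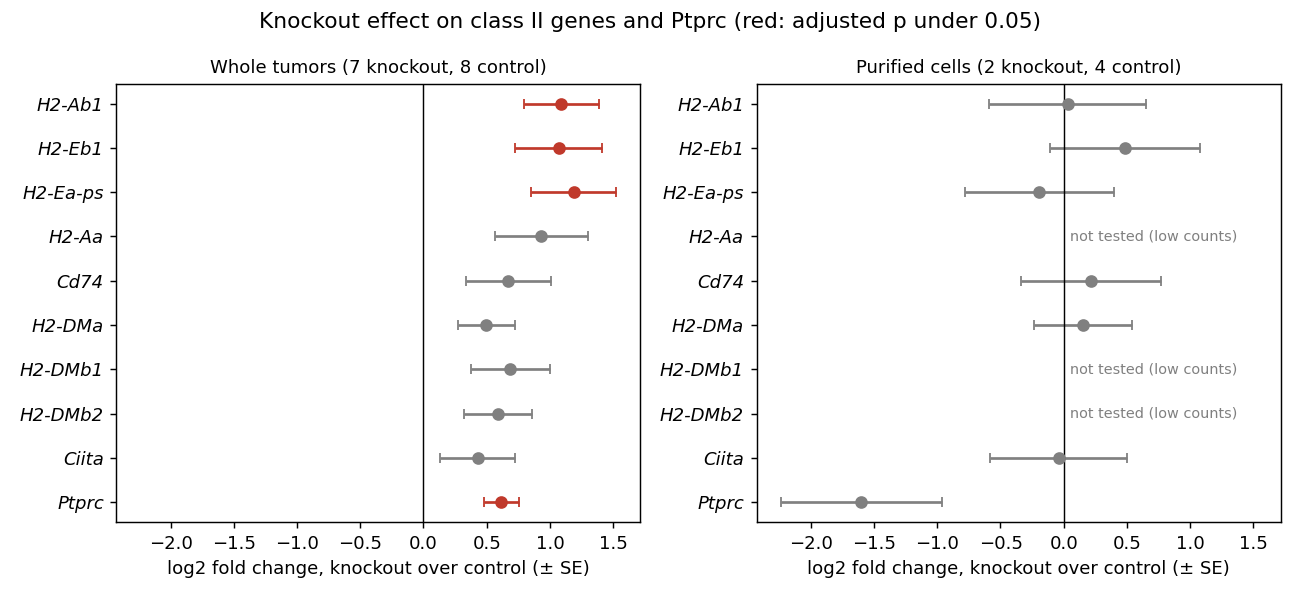
Log2 fold change of knockout over control with its SE (horizontal axis) for 7 class II members, H2-Ea-ps, H2-DMb2 and Ptprc, in whole tumors (left, 7 knockout and 8 control) and purified cells (right, 2 knockout and 4 control). Red marks an edgeR adjusted p under 0.05. H2-Ab1, H2-Eb1, H2-Ea-ps and Ptprc are red in tumors, and no gene is red in purified cells.

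The pathway did not shift as a block within tumors. Relative to the classical chains (mean of H2-Aa, H2-Ab1 and H2-Eb1), Ciita, Cd74 and H2-DM were each lower in knockout than in control tumors, on a log2 scale with 0.5 CPM added. These ratios compare genes within 1 library, so library scaling cancels apart from the pseudocount. All 5 ratios were tested by exact two-sided permutation over all 6435 assignments of the 15 tumors, adjusted over the 5.

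Ciita over the classical chains averaged -1.23 ± 0.17 in knockout and -0.62 ± 0.31 in control tumors (SD, n = 7 and 8), a difference of -0.61 (exact permutation p = 0.00109, adjusted 0.00544). Its ranges overlapped narrowly, -1.39 to -0.90 in knockout and -0.98 to -0.13 in control tumors. In TPM the ranges of H2-Ab1 over Ciita were separate, at 41.6 to 56.2 in knockout tumors and 19.6 to 40.4 in control tumors.

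Cd74 over the classical chains averaged 3.47 ± 0.30 in knockout and 3.90 ± 0.22 in control tumors (SD, n = 7 and 8), a difference of -0.43 (exact permutation adjusted p = 0.00544). Cd74 over H2-Ab1 in TPM ran over 2.30 to 3.94 in knockout tumors and 4.27 to 5.89 in control tumors, again separate.

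H2-DM over the classical chains averaged -1.57 ± 0.15 in knockout and -1.10 ± 0.35 in control tumors (SD, n = 7 and 8), a difference of -0.47 (exact permutation adjusted p = 0.0119), with overlapping ranges. H2-Aa over H2-Ab1 differed by -0.21 (exact permutation adjusted p = 0.179) and H2-O over H2-DM by -0.17 (exact permutation adjusted p = 0.396). The first of these passed the test with 2 CPM added (-0.54, adjusted p = 0.0104) and the second turned to 0.14 with 0.1 CPM added, since both contain genes of few counts.

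**Figure D3:**
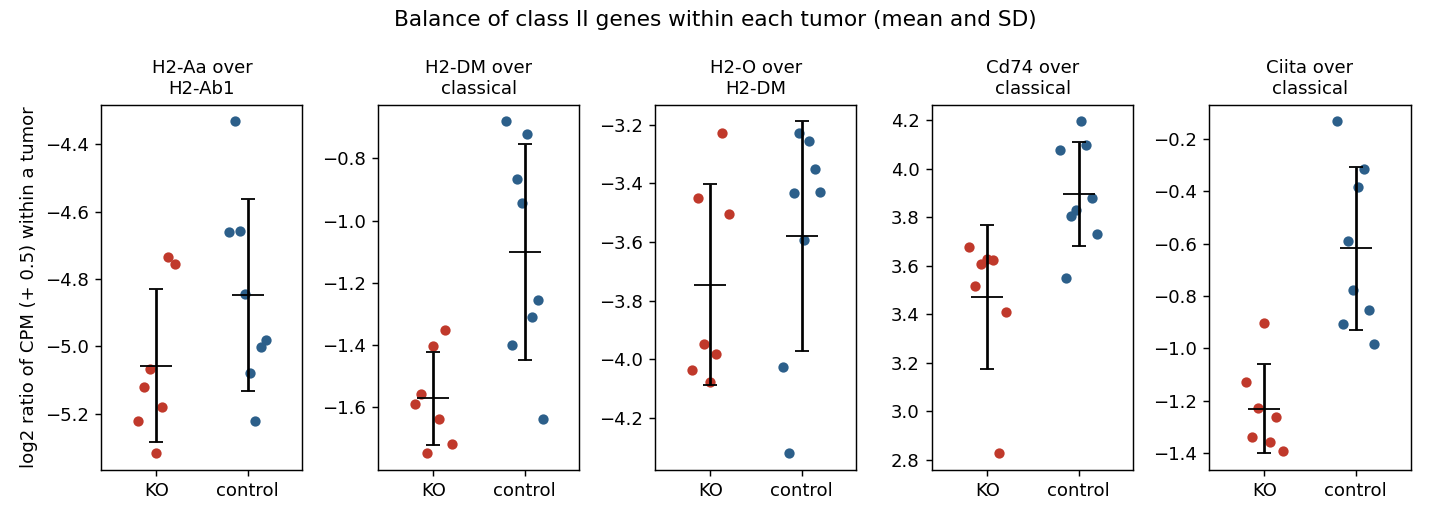
Log2 ratio of class II genes within each tumor (vertical axis, CPM with 0.5 added), for 7 knockout (KO) and 8 control tumors. Points are tumors, and the bars give the mean and SD. Each panel has its own range. Knockout tumors lie lower for H2-DM, Cd74 and Ciita over the classical chains.

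The purified and cultured libraries show how much of the class II signal stayed once host cells were depleted. H2-Ab1 was at 0.416 to 1.63 CPM in the 6 purified libraries, H2-Eb1 at 0.647 to 2.71 CPM and Cd74 at 4.0 to 19.3 CPM. Ciita was at 0.918 to 2.70 CPM and H2-DMa at 1.52 to 3.74 CPM there. H2-Aa had 1 count in 1 of the 6 libraries and 0 in the other 5, H2-Oa had 0 in all 6, and H2-Ob had 7 counts in 1 knockout library and 0 in the other 5.

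Between knockout tumors and knockout purified cells, 7 of 8 members tested were higher in tumors at an edgeR adjusted p under 0.05, where 31.1% of all genes tested were. Between control tumors and control line 1 purified cells, 7 of 7 were higher, where 30.2% of all genes were. H2-Aa, H2-DMb1 and, in the knockout line, H2-Ob passed the count filter only through the tumors, so their results support nothing by themselves. H2-Ab1, H2-Eb1, Cd74, H2-DMa and Ciita also passed that filter among the purified libraries alone. H2-Ab1 differed by 6.88 ± 0.78 on the log2 scale for the knockout line and 5.90 ± 0.74 for control line 1 (SE, edgeR adjusted p = 0.000154 and 0.000143). Cd74 differed by 5.02 ± 0.89 and 4.83 ± 0.68 (adjusted p = 0.00203 and 0.000351), H2-DMa by 3.47 ± 0.48 and 3.42 ± 0.41 (0.000239 and 3.36e-05) and Ciita by 3.41 ± 0.65 and 2.66 ± 0.52 (0.00184 and 0.00133) for the same lines. H2-Aa was at 1.61 to 4.06 CPM in knockout tumors, against 0 counts in both knockout purified libraries, at least 39.7-fold higher in tumors with the floor set at 3 counts over the 2 libraries.

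The part of the tumor level left after purification differed between members. In the knockout line 0.870% of the H2-Ab1 level was left, 1.40% of H2-Eb1, 3.16% of Cd74, 9.24% of H2-DMa, 9.12% of H2-DMb1 and 9.64% of Ciita. In control line 1 the shares were 1.68% for H2-Ab1, 2.23% for H2-Eb1, 3.57% for Cd74, 9.47% for H2-DMa, 2.03% for H2-DMb1 and 16.0% for Ciita. H2-DMb1 had 16 counts in the 2 knockout libraries and 2 in the 2 control line 1 libraries. Ciita ran over 5.90 to 13.4% between the 2 knockout libraries and 8.85 to 23.2% between the 2 control line 1 libraries, from 63 and 68 counts in all.

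Host markers gave the scale. Ptprc was left at 0.276% in the knockout line and 1.45% in control line 1. In knockout purified cells it was at 0.459 and 0.581 CPM, within the 0.361 to 0.592 CPM of the cultured lines. The 17 macrophage markers had medians of 0.373% and 1.43% in the knockout line and control line 1, and the 9 T cell markers 0.663% and 1.21%. The dendritic cell markers with at least 1 CPM in tumors had higher medians. These were 3.49% over 16 genes in the knockout line and 6.76% over 13 genes in control line 1. They include genes that stayed high in purified cells of these lines. Zbtb46 was left at 112% and 74.4%, Fscn1 at 218% and 216%, Snx22 at 61.4% and 70.8%, and Cadm1 at 91.5% and 118%. The dendritic cell medians therefore give no scale for host cells, and no order against the class II shares is drawn from them. Some markers did not follow the rest: Mertk, a macrophage receptor, was left at 59.3% and 76.0%, and the 17 genes of the dendritic cell list summed to 436 to 518 CPM in knockout tumors and 494 to 499.7 CPM in knockout purified cells, where Fscn1 and Cadm1 alone were at 345 and 128 CPM. Of those 17 genes Flt3, Batf3, Cd209a and Siglech had 0 counts in knockout purified cells, and Flt3 and Batf3 had 0 counts in control line 1 purified cells. The macrophage markers summed to 1793 to 4617 CPM in knockout tumors, 23.9 to 28.9 CPM in knockout purified cells and 23.2 to 24.1 CPM in the 3 cultured lines, and in control line 1 to 1326 to 3578 CPM in tumors and 47.6 to 52.8 CPM in purified cells. T cell markers summed to 0.60 to 1.26 CPM in knockout purified cells and 0.46 to 1.26 CPM in culture. B cell markers summed to 8.36 to 13.9 CPM in knockout tumors, 4.45 to 4.82 CPM in knockout purified cells and 0.49 to 1.23 CPM in culture. In control line 1 they summed to 5.76 to 9.33 CPM in tumors and 4.24 to 7.62 CPM in purified cells, which overlap. What part of the residual class II counts came from host cells was not tested.

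**Figure D4:**
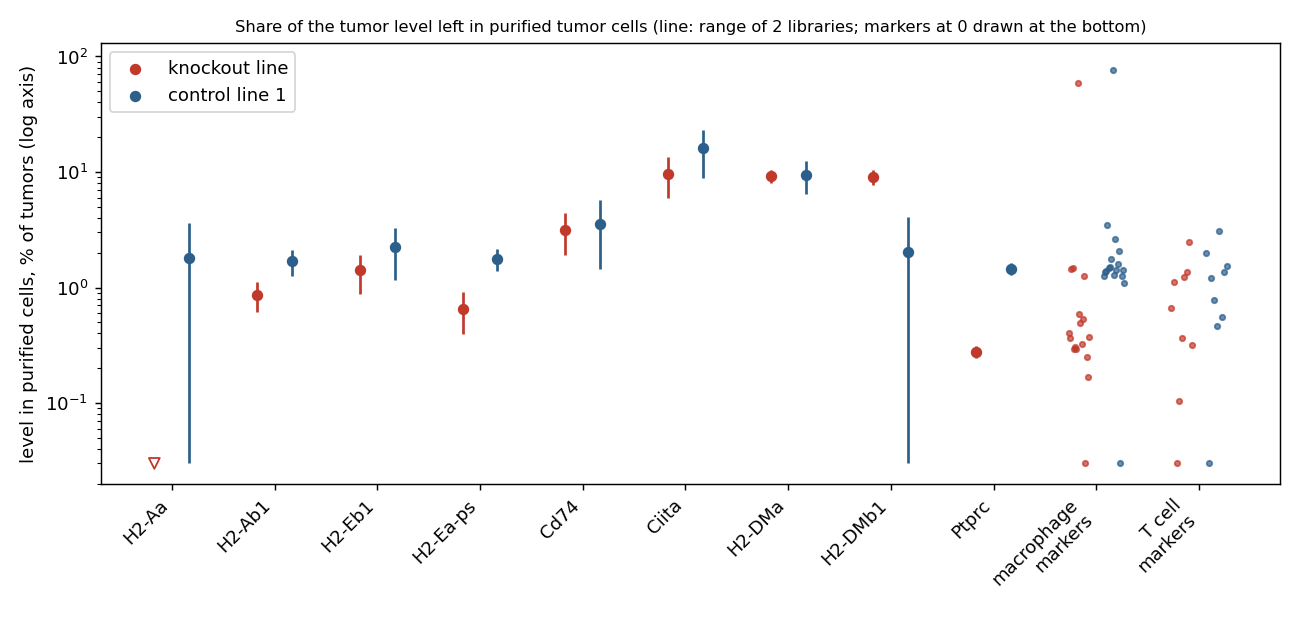
Mean level in purified tumor cells as percent of the mean level in whole tumors (vertical log axis) for class II genes, Ptprc and 2 marker lists, in the knockout line (red) and control line 1 (blue). Lines span the 2 purified libraries, small points are single markers and values of 0 are drawn at the bottom. Ciita sits at 9.64% and 16.0% and H2-DMa at 9.24% and 9.47% in the knockout line and control line 1, and Ptprc at 0.276% and 1.45%.

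Ratios to Ptprc within a library put the same data in another form. In whole tumors Ciita stood at 0.0409 to 0.117 counts for each Ptprc count in the knockout and at 0.0634 to 0.134 in control line 1. In purified cells the ratio was 2.00 and 3.58 in the knockout, 0.654 and 1.34 in control line 1 and 0.512 and 2.33 in control line 2, all 6 above every tumor. In culture it was 0.167 in the knockout and 0.143 in control line 1, also above every tumor, and 0 in control line 2. These culture values rest on at most 2 Ciita counts. H2-Eb1 over Ptprc was 0.347 to 0.954 in knockout tumors, against 2.70 and 4.67 in knockout purified cells. In control tumors it was 0.383 to 0.795, against 0.5 and 1.11 in control line 1 purified cells, so there the ranges overlapped. In culture H2-Eb1 over Ptprc ran over 0.286 to 0.714. The purified ratios rest on few counts, 10 to 43 of Ptprc a library. Ptprc in knockout purified cells, 0.459 and 0.581 CPM, lay within the 0.361 to 0.592 CPM of culture. Whether these ratios reflect residual leukocytes was not tested.

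In culture the pathway was nearly silent. H2-DMb1, H2-Oa and H2-Ob had 0 counts in all 3 cultured libraries, H2-Aa had at most 2 counts, H2-Ab1 at most 2 and Ciita at most 2. Cd74 was at 1.92 CPM in cultured knockout cells, 0.932 in control line 1 and 0 in control line 2. H2-DMa had 13 to 32 counts in these libraries, and Cd74 0 to 39.

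Purified cells were then set against cultured cells with the line as a term, a comparison added after the values had been seen. The 5 members tested were all higher in purified cells (edgeR), where 21.0% of all genes tested were. Ciita and H2-Ab1, with at most 2 counts in a cultured library, and H2-Eb1, with at most 7, passed the count filter only through the purified libraries. Their direction was thus set by the filter, and neither their results nor the count of 5 support anything by themselves. Ciita was higher by 4.74 ± 0.74 on the log2 scale (SE, edgeR adjusted p = 0.000254), H2-Ab1 by 3.69 ± 0.82 (0.00302), Cd74 by 3.76 ± 0.88 (0.0166), H2-Eb1 by 2.74 ± 0.61 (0.00311) and H2-DMa by 1.31 ± 0.32 (0.00524). Ptprc came to 1.27 ± 0.60 (edgeR adjusted p = 0.107), at 0.459 to 2.26 CPM in purified and 0.361 to 0.592 CPM in cultured cells.

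Between knockout and control purified cells no member was called. Of 5 members tested by edgeR 0 passed the adjusted threshold, where 4.55% of all genes tested were called in either direction. At an unadjusted p under 0.05 there were 0 members, and 2718 of all 12476 genes tested. DESeq2 called 0 members as well. H2-Ab1 was at 0.688 and 1.26 CPM in knockout purified cells, against 0.667, 1.11, 1.63 and 0.416 CPM in control purified cells, a log2 fold change of 0.03 with a 95% interval of -1.19 to 1.25 (normal, from the SE). Cd74 was at 8.31 and 19.3 CPM in knockout purified cells, against 4.0, 15.7, 15.7 and 12.1 CPM in the controls (0.22, interval -0.87 to 1.30). Ciita was at 0.918 and 2.08 CPM in knockout purified cells, against 1.03, 2.70, 1.16 and 1.29 CPM in the controls (-0.04, interval -1.10 to 1.02).

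Ptprc came to -1.60 ± 0.64 between the same libraries (SE, unadjusted p = 0.0324, edgeR adjusted p = 0.186), at 0.459 and 0.581 CPM in knockout purified cells, against 1.58, 2.01, 2.26 and 0.554 CPM in the controls. H2-DMa came to 0.15 (interval -0.60 to 0.91) and H2-Eb1 to 0.48 (interval -0.68 to 1.65). The intervals of all 5 members hold 0, and each holds the fitted value of the same gene in tumors. Against control line 2 alone the fitted values were -0.05 for H2-Ab1, -0.09 for H2-DMa and 0.29 for Ciita, of the other sign, so no direction is given for them. The test of the difference itself set the knockout effect in tumors against that in purified cells, with control line 1 as the control in both. It called 0 of 8 members, where 10.1% of all genes were called. At an unadjusted p under 0.05 there were 0 members, and 3841 of all 15033 genes tested. DESeq2 called 0 members of this difference as well. The difference was 0.98 ± 1.34 on the log2 scale for H2-Ab1 (SE, edgeR adjusted p = 0.701) and 0.76 ± 0.86 for Ciita (adjusted p = 0.629), -1.93 ± 1.33 for H2-DMb1 (adjusted p = 0.390), and 2.40 ± 0.61 for Ptprc (adjusted p = 0.0190).

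Genes that act on or with the members were read in the tumors as lists, with no test of a list, by their counts and medians. They are to be read beside all genes tested in tumors, of which 18.1% were called higher and 19.0% lower, with a median log2 fold change of 0.01. Of 10 genes of class II transcription 4 were higher and 3 lower, with a median log2 fold change of 0.09. Rfxap, a subunit of the RFX complex that binds the X box, fell to 13.3 ± 1.3 CPM in knockout tumors, against 20.5 ± 1.2 CPM in control tumors (SD, n = 7 and 8; -0.61, edgeR adjusted p = 3.74e-06). Sub1, a transcription coactivator, was at 176 ± 19.8 CPM in knockout and 119.7 ± 19.5 CPM in control tumors (0.56, adjusted p = 0.000208).

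Of 10 genes on the path from interferon gamma to Ciita 4 were higher and 3 lower, with a median of -0.07. Ifng itself averaged 9.45 ± 1.33 CPM in knockout and 4.48 ± 2.00 CPM in control tumors (SD, n = 7 and 8; log2 fold change 1.08 ± 0.22, SE, edgeR adjusted p = 0.00121). Jak2, a kinase of the interferon gamma receptor, was lower, at 72.9 ± 2.9 CPM in knockout and 90.5 ± 4.9 CPM in control tumors (-0.30, edgeR adjusted p = 0.000109), while Socs1, a feedback inhibitor of that path, was higher (0.58, adjusted p = 0.000503).

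In the list of peptide supply and turnover 7 of 15 genes were higher and 1 lower (median 0.14). It included Ifi30, the lysosomal thiol reductase that opens disulphide bonds of antigens, at 47.4 ± 7.3 CPM in knockout and 30.9 ± 6.7 CPM in control tumors (SD, n = 7 and 8; 0.63, edgeR adjusted p = 0.00123). March1, the ubiquitin ligase that removes class II molecules from the surface of antigen-presenting cells, was at 21.3 ± 4.8 CPM in knockout and 11.8 ± 3.5 CPM in control tumors (0.87, adjusted p = 0.00165). Of 9 costimulation genes tested 2 were higher and 0 lower (median 0.45), a share near the 18.1% of all genes, Cd40 at 0.88 (adjusted p = 0.000231) and Cd200 at 0.76 (0.00580) by edgeR.

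On the T cell side of the class II contact 8 of 9 genes tested were higher and 0 lower, with a median of 0.75. Cd3g, a chain of the T cell receptor complex, averaged 30.1 ± 6.1 CPM in knockout and 11.1 ± 2.6 CPM in control tumors (SD, n = 7 and 8; 1.45, edgeR adjusted p = 7.77e-07), and Cd3d differed by 1.21 (2.08e-05). These chains do not set CD4+ apart from other T cells, no value of Cd4 is given, and the part of CD4+ cells was not tested. In the general T cell list 6 of 9 were higher and 0 lower, with Cd8a and Cd8b1, the chains of CD8, both at 1.24 (edgeR adjusted p = 0.000241 and 0.000118). The T cell markers summed to 143 to 217 CPM in knockout tumors, against 76.2 to 141 CPM in control tumors.

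Among markers of host cells that can carry class II, 5 of 16 dendritic cell markers tested were higher and 0 lower (median 0.44). Of 17 macrophage markers 5 were higher and 0 lower (0.39), and of 5 B cell markers 2 were higher and 1 lower (0.60). Of all genes tested 18.1% were higher. The dendritic cell list is not of host cells alone. It summed to 614 CPM in cultured knockout cells, 748 CPM in control line 1 and 645 CPM in control line 2. In whole tumors it summed to 436 to 518 CPM in the knockout and 364 to 455 CPM in the control. Xcr1, the receptor of cross-presenting dendritic cells, was at 5.86 ± 2.71 CPM in knockout and 1.79 ± 0.88 CPM in control tumors (SD, n = 7 and 8; 1.71, edgeR adjusted p = 0.00175), and Irf8, a factor such cells need, differed by 0.50 (0.00143). Aif1, a calcium-binding protein of macrophages, differed by 1.32 and the Fc receptor gene Fcgr1 by 0.75 (edgeR adjusted p = 0.000543 and 0.00170). Cd79b, a chain of the B cell receptor complex, was at 2.55 ± 1.56 CPM in knockout and 0.697 ± 0.249 CPM in control tumors (1.88, adjusted p = 0.000284), and Spib, an ETS factor of B cells and plasmacytoid dendritic cells, was lower (-0.89, 0.00115). The macrophage markers summed to 1793 to 4617 CPM in knockout tumors and 1326 to 3578 CPM in control tumors, which overlap.

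The other lists were mixed. Of 7 monocyte genes tested 4 were higher and 2 lower, among the lower Fn1, which other cells also make, at -0.93 (edgeR adjusted p = 0.000744). Among 8 endothelial markers 3 were higher, Pecam1 at 0.53 (2.77e-05) and Eng at 0.55 (0.000296) among them. In purified cells Eng was left at 41.5% in the knockout line and 87.5% in control line 1, so it is not of host cells alone. Pecam1 was left at 0.425% and 1.47%. Of 4 neutrophil genes 0 were higher and 1 lower, Mmp8 at -1.80 (edgeR adjusted p = 0.00216), while Csf3r came to 0.45 (0.118). Of the 2 plasma cell genes tested Sdc1 was higher by 0.18 (edgeR adjusted p = 0.0354) and Xbp1 came to -0.19 (0.101). The Sdc1 call was lost in 6 of the 15 fits with 1 tumor left out. The plasma cell list summed to 122 to 175 CPM in knockout tumors, 153 to 169 CPM in knockout purified cells and 145 CPM in cultured knockout cells. Its values are therefore not of host cells alone. With log2 Ptprc as a covariate Rfxap, Sub1, Jak2, Cd3g, Cd3d, Cd8a, Aif1, Spib and Pecam1 were still called, and Socs1, Ifi30, March1, Cd40, Cd200, Irf8, Xcr1, Fcgr1, Fn1, Cd79b, Cd8b1, Eng, Mmp8 and Sdc1 were not. The part of these cell types in the class II levels was not tested.

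Within a genotype the members varied together from tumor to tumor. After each genotype's mean was taken away, the 21 pairs of the 7 members tested had Pearson r of 0.768 to 0.983 over 15 tumors (median 0.888). With the mean log2 CPM of H2-Aa, H2-Ab1, H2-Eb1 and Cd74 as the class II level, the most alike of 12837 genes that are no member were H2-Ea-ps (r = 0.980), Enpp5 (0.923), Slc31a2 (0.914), Ldhb (0.906), Pirb (0.893), Zfp810 (0.892), Dnase1l3 (0.891), Entpd1 (0.884), Themis2 (0.878) and Il2rg (0.877). Among them Pirb encodes an inhibitory receptor of myeloid and B cells, Dnase1l3 a secreted nuclease, Entpd1 the ectonucleotidase CD39 and Il2rg the shared gamma chain of several cytokine receptors. These values describe 15 tumors and share their libraries' depth and tissue makeup. Ptprc was at r = 0.723 and rank 180, Xcr1 at 0.709, the macrophage gene C1qa at 0.535 and Itgax, which encodes CD11c, at 0.409. The RFX subunit gene Rfx5 was at 0.144.

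The class II level was then related to Ciita, Ptprc and Ifng within each genotype, 6 relations added after values had been seen, computed with exact permutation tests and adjusted together. With Ciita, Pearson r was 0.970 over the 7 knockout tumors (exact permutation p = 0.00179, adjusted 0.0107) and Spearman's rho 0.893 (exact p = 0.0123, adjusted 0.0738). Without the 2 tumors farthest from the Ciita median r was 0.828 over 5. Over the 8 control tumors r was 0.878 (exact permutation p = 0.00722, adjusted 0.0217) and rho 0.786 (exact p = 0.0279, adjusted 0.0838), and r became 0.427 over 6 without the 2 farthest, so there it rests on those tumors.

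With Ptprc, r was 0.744 in knockout tumors (exact permutation p = 0.0613, adjusted 0.0736) and 0.743 in control tumors (exact p = 0.0556, adjusted 0.0736), with rho of 0.714 (adjusted 0.106) and 0.690 (adjusted 0.104). It became 0.425 in knockout and -0.03 in control tumors without the 2 farthest. With Ifng, r was -0.15 in knockout tumors (exact permutation p = 0.735) and 0.722 in control tumors (exact p = 0.0391, adjusted 0.0736), with rho of -0.04 and 0.738. None of these 4 passed the adjusted threshold.

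**Figure D5:**
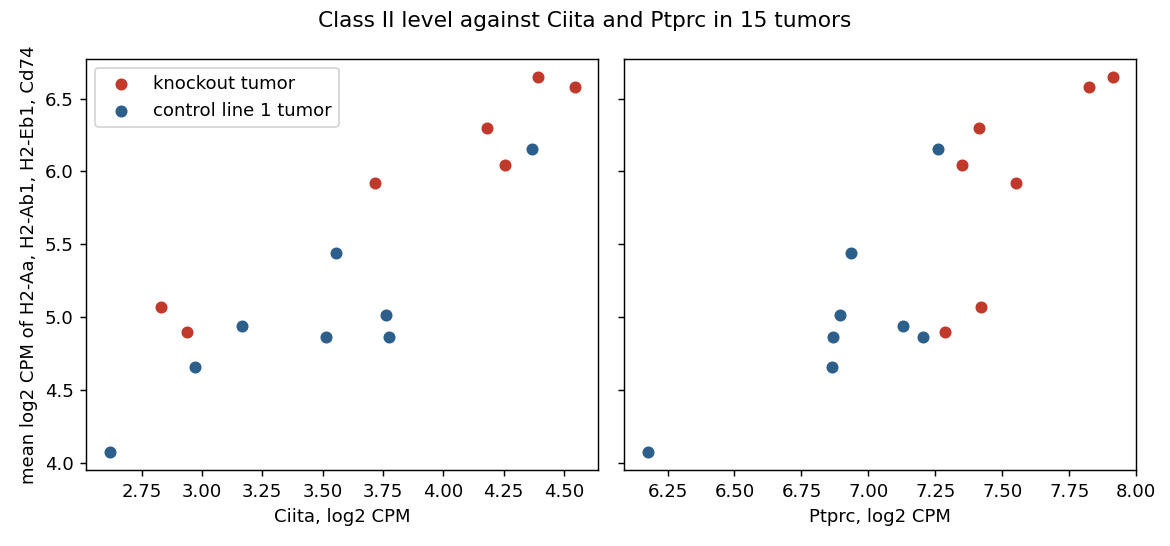
Class II level (vertical axis, mean log2 CPM of H2-Aa, H2-Ab1, H2-Eb1 and Cd74) against log2 CPM of Ciita (left) and Ptprc (right) in 7 knockout (red) and 8 control (blue) tumors. Each point is a tumor. Class II levels run over 4.90 to 6.65 in knockout and 4.08 to 6.16 in control tumors, and 2 knockout tumors lie low with low Ciita while their Ptprc is above that of all 8 control tumors.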

How the data were processed

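Per the submitters' processing notes, FastQC, STAR, RSEM and DESeq2 were used with the mm10 genome; their versions are not given in the sources used here. The authors deposited, per the file headers, RSEM tables with an expected count and TPM per gene, and DESeq2 tables with a signal (mean normalised count), a log2 fold change, a score (Wald statistic), and p-values, raw and adjusted. Those fold changes run control over knockout, since Sun1 is positive in all of them. Whether counting used strand is not stated.

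Samples were grouped by their labels. Expected counts were rounded and fitted with edgeR 4.0.16 in R 4.3.3 (TMM, filterByExpr with minimum count 10 and minimum total 15, robust quasi-likelihood F tests, Benjamini-Hochberg over all genes tested, threshold 0.05), per comparison. The procedure was tested on simulated data. Correlations used log2 CPM with a prior count of 2. Permutation tests enumerated all assignments or orders of the tumors, and SciPy 1.17.1 gave the ranks and the Benjamini-Hochberg adjustment. Libraries of the same group differed by more than sampling noise, with a chi-square per gene of at least 7.38.

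The members and lists were chosen with earlier results of these data known. Named genes are all members, the 2 genes of each list with the smallest p in tumors, the 10 genes most like the class II level with a mean of at least 1 CPM, Ptprc and Sun1; 1 gene so named is not reported here. Genes given besides these (Ifng, Xcr1, C1qa, Itgax, Rfx5 in the correlations, Mertk, Zbtb46, Fscn1, Snx22 and Cadm1 after purification) were picked with their values known. Alternatives were DESeq2 1.42.0, RLE size factors, no count filter, each replicate left out, a replicate block, single control lines, Ptprc as a covariate and other pseudocounts.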

Additional observations from a re-analysis of the deposited data

Results flagged for a closer look

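Of 18 groups checked, the 9 genes in knockout and in control tumors, 4 held a tumor far from the others of its group, a gap that chance gives in about 1 in 20 groups. H2-Aa was at 4.49 CPM in control tumor 2, against 1.69 CPM in the next control tumor. H2-DMb1 was at 5.40 CPM in the same tumor, against 3.23 CPM in the next. Control tumor 2 was also the highest control tumor for H2-Ab1, H2-Eb1, Cd74, H2-DMa and Ciita, and had 8.06 CPM of Ifng, the most of the 8 control tumors. H2-Oa was at 0.895 CPM in knockout tumor 2, against 0.372 CPM in the next knockout tumor, and at 0.487 CPM in control tumor 4, against 0.230 CPM in the next control tumor. The H2-Oa values rest on at most 17 counts.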

How the results depend on the processing

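With Ptprc as a covariate in tumors, members called became 0, against 2, all genes called 1382, and the sign turned for H2-Aa (-0.17), H2-DMa (-0.21), H2-DMb1 (-0.24), Cd74 (-0.33), Ciita (-0.38), H2-DMb2 (-0.34) and Csf3r (-0.38); the cause was not tested. In purified cells all genes called, 568, became 1139 with DESeq2, 908 with no filter, 2896 against control line 1 only and 2322 against control line 2 only, where H2-Ab1 (-0.052), H2-DMa (-0.085), Cd74 (-0.0058) and Ciita (0.29) turned sign. The labels do not say that replicate numbers pair samples, and low correlations cannot exclude a pairing. The deviations of same-numbered knockout and control tumors correlated at -0.11 to 0.22 in 7 pairs. Those of purified cells correlated at 0.041 against control line 1 and 0.069 against control line 2. With 2 libraries a group, each of these is 1 value only. With the replicate block the count in purified cells became 303. Over all genes the block called 2432 of 13718 higher in knockout than in control tumors. Between knockout tumors and knockout purified cells it called 3873 of 13789 higher in tumors. The block called 3 members in tumors (H2-Aa at adjusted p = 0.0204 and H2-DMb1 at 0.0406 entered, H2-Eb1 at 0.104 left, as did H2-Ea-ps, no member, at 0.0780), 5 of 7 between knockout tumors and knockout purified cells, and gave the interaction of H2-DMa as -0.12 (-0.15 unblocked on those libraries). H2-Aa over H2-Ab1 became -0.54 with 2 CPM added and H2-O over H2-DM 0.14 with 0.1 CPM.

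Leaving out 1 replicate gave 1 to 5 members called in tumors, where 2166 to 2519 of all genes tested were called higher. It gave 72 to 540 genes called in purified cells and 546 to 1705 in the interaction. In purified cells it gave -0.45 to 0.42 for H2-Ab1, -0.17 to 0.94 for H2-Eb1, -0.041 to 0.35 for H2-DMa, -0.50 to 0.70 for Cd74, -0.73 to 0.43 for Ciita and -0.89 to 0.28 for H2-Ea-ps. In the interaction it gave -0.25 to 1.36 for H2-Eb1, -0.50 to 0.42 for H2-DMa, -4.66 to 1.06 for H2-Ob, -1.11 to 0.91 for Cd74 and -0.11 to 1.45 for Ciita. The correlation of the class II level with Ifng in knockout tumors ran over -0.50 to 0.40. With 2 libraries in a purified group, precision there is low.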
